A study of Bubalus bubalis with 6 samples.

Results

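The genes of bone morphogenetic protein (BMP) signaling and the ID proteins were examined in buffalo muscle stem cells (MuSCs) during proliferation and differentiation. The 10 genes were chosen by symbol, with earlier results of these data known. They were the ligands BMP2 and BMP4, the antagonist GREM1, the receptor BMPR1A, the inhibitory SMADs SMAD6 and SMAD7, and ID1, ID2, ID3 and ID4. Of these, 9 were listed in the gene table among 24616 genes, and all 9 passed the filter on low counts with 15576 genes in all. ID4 was not listed by symbol and was not analysed here.

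The MuSCs were primary cells of water buffalo (Bubalus bubalis), isolated from fetal longissimus muscle with collagenase and trypsin. PolyA RNA-seq was made from 3 samples in growth medium with fetal bovine serum (GM, proliferation) and 3 samples switched near confluence to medium with little horse serum for several days (DM, differentiation). Medium, serum, confluence and time in culture therefore differed together between GM and DM and cannot be told apart. The labels give no strain, sex or genotype and do not say whether the samples were separate cultures or came from separate fetuses, so p-values measure only the spread between these samples, which may be technical.

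BMPs are secreted ligands that bind paired type I and type II receptor kinases. The type I receptors phosphorylate SMAD1, SMAD5 and SMAD9, which enter the nucleus with SMAD4 and switch on target genes, among them the ID genes and the feedback inhibitors SMAD6 and SMAD7. ID proteins are helix-loop-helix proteins with no DNA-binding region. They pair with E proteins and so keep them from pairing with myogenic factors such as MYOD1, and in muscle cells they are known as brakes on differentiation.

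Each sample held between 35615864 and 40305237 reads counted on genes. Read counts scaled to library size (CPM) were normalized by TMM, and values scaled to library size and gene length (RPKM) were taken as deposited wherever the levels of different genes are compared. A gene was called when its log2 fold change, DM over GM, exceeded 1 in either direction with an adjusted p under 0.05 by edgeR's quasi-likelihood test. DM replicate 3 stood apart. It lay more than 1.5-fold outside the range of DM replicates 1 and 2 in 11.9% of tested genes, whereas the other 5 samples lay that far from the other samples of their group in 4.64 to 5.87%. Summed markers of skeletal muscle cells (9 of 10 listed) ranged from 2935 to 3293 CPM in GM and from 4086 to 5064 CPM in DM, but they did not move together, with 3 called higher and 2 lower. Of the called markers, ACTA1 rose from 187 to 1649 CPM, TNNT3 from 11.9 to 334 CPM and MYOG from 52.9 to 167 CPM. MYF5 and ITGA7 (253 to 64.8 CPM) were called lower. Without a call, MYOD1 had a higher mean in DM, and DES, CDH15 and PAX7 had lower means. Fibroblast markers ranged from 35288 to 36038 CPM in GM and from 97354 to 123308 CPM in DM, with 6 of 7 tested markers called higher. Fewer cells of a type and less RNA per cell cannot be told apart in these bulk samples, and the part of the fibroblast markers in the results was not tested.

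ID1 and ID3, both targets of BMP signaling, fell in DM, and so did the antagonist GREM1. ID1 fell 11.7-fold, GREM1 4.34-fold and ID3 3.18-fold. BMPR1A was the only gene of the 9 with a higher mean in DM, and it was not called. The 3 called genes of 9 stand beside 25.3% of all tested genes called, and all 3 were lower in DM, beside 10.3% of all tested genes called lower and 15.0% called higher. The median log2 fold change of the 9 genes was −0.81, against 0.03 for all tested genes. Without the fold minimum, all 9 passed at an adjusted p under 0.05, as did 63.0% of all tested genes. GM and DM samples did not overlap in any of the 9 genes, which also holds for 68.8% of all tested genes.

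**Figure D1:**
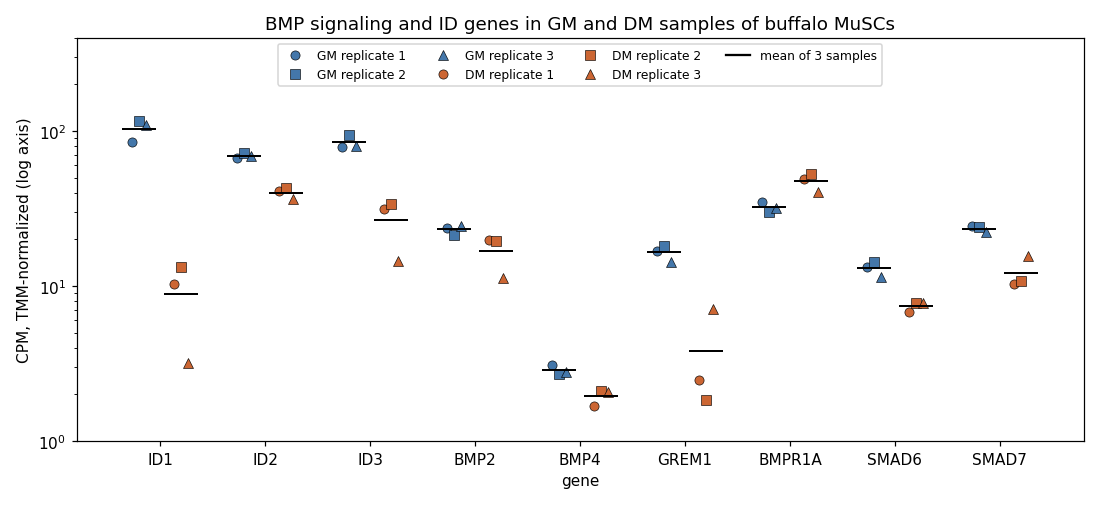
TMM-normalized CPM on a log axis for the 9 genes, with a point for each of the 3 GM (blue) and 3 DM (orange) samples and a bar at each mean. ID1 fell from a mean of 104 to 8.88 CPM, and DM replicate 3 (orange triangle) is the lowest DM sample for ID1, ID2, ID3, BMP2 and BMPR1A and the highest for GREM1 and SMAD7.

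The ligands BMP2 and BMP4 had lower means in DM, and neither was called. BMP2 (ENSBTAG00000005111, chromosome 13, 49550050 to 49561303, plus strand) measured 23.8, 21.2 and 24.5 CPM in the GM samples and 20.0, 19.5 and 11.2 CPM in DM. The difference rested in large part on DM replicate 3, which was 1.76-fold below the mean of the other DM samples. The log2 fold change was −0.46 (SE 0.18, edgeR adjusted p = 0.0478), and it was −0.22 without DM replicate 3. BMP4 (ENSBTAG00000003835, chromosome 10, 66751296 to 66755026, minus strand) had few reads, with 129, 112 and 106 counts in GM and 57, 77 and 77 counts in DM. Its mean went from 2.87 ± 0.218 to 1.96 ± 0.234 CPM (SD, n = 3 each), a log2 fold change of −0.55 (SE 0.20, edgeR adjusted p = 0.0370). The edgeR adjusted p of both was above 0.05 when any GM sample was left out, reaching 0.135 at most, and that of BMP4 also without DM replicate 1 (0.107) or DM replicate 2 (0.0563).

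GREM1 (ENSBTAG00000046604, chromosome 10, 30039413 to 30039967, minus strand) encodes a secreted protein that binds BMP2 and BMP4 and keeps them from their receptors. It was measured at 16.9, 18.1 and 14.4 CPM in GM and at 2.46, 1.83 and 7.05 CPM in DM. All DM samples were below all GM samples, but DM replicate 3 was 3.29-fold above the mean of the other DM samples. GREM1 fell by 2.12 on the log2 scale (SE 0.38, edgeR adjusted p = 0.000636), and by 2.94 without DM replicate 3. The listed gene is 555 bases long and so is its interval, so its RPKM rests on a short model without introns.

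BMPR1A (ENSBTAG00000000231, chromosome 28, 41817915 to 41875990, plus strand), a type I receptor for BMP2 and BMP4, measured 34.8, 30.2 and 32.0 CPM in GM and 48.9, 52.9 and 40.6 CPM in DM. Every DM sample was above every GM sample. The log2 fold change of 0.55 (SE 0.10, edgeR adjusted p = 0.000698) was under the fold minimum.

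The inhibitory SMADs were both lower in DM. SMAD6 (ENSBTAG00000000625, chromosome 10, 13507839 to 13583291, plus strand), which acts mainly on BMP receptors, had 13.2, 14.3 and 11.5 CPM in GM and 6.75, 7.79 and 7.76 CPM in DM. Its log2 fold change was −0.81 (SE 0.13, edgeR adjusted p = 0.000223). SMAD6 overlaps a gene on the opposite strand, ENSBTAG00000038176, and the sources used here do not say whether counting used strand. SMAD7 (ENSBTAG00000012441, chromosome 24, 49071140 to 49098714, minus strand), which inhibits both BMP and TGF-β receptors, had 24.3, 24.0 and 22.2 CPM in GM and 10.3, 10.8 and 15.6 CPM in DM. The log2 fold change of SMAD7 was −0.94 (SE 0.14, edgeR adjusted p = 0.000204), just under the fold minimum. SMAD7 passed that minimum without DM replicate 3, at −1.15, and with scaling by library size alone, at −1.04.

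The 3 ID genes differed from each other in how far they moved. ID1 (ENSBTAG00000016169, chromosome 13, 61726125 to 61727283, plus strand) had 84.9, 117 and 109 CPM in GM and 10.3, 13.2 and 3.16 CPM in DM. The lowest GM sample was thus far above the highest DM sample. ID1 fell by 3.55 on the log2 scale (SE 0.36, edgeR adjusted p = 9.02e-06). The counts behind these values were 3523, 4867 and 4149 in GM and 348, 482 and 117 in DM.

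ID3 (ENSBTAG00000030425, chromosome 2, 129895413 to 129897012, plus strand) had 79.2, 94.0 and 80.4 CPM in GM and 31.3, 34.0 and 14.6 CPM in DM. It fell by 1.67 on the log2 scale (SE 0.24, edgeR adjusted p = 0.000127). DM replicate 3 was again the lowest DM sample, 2.24-fold below the mean of the other DM samples for ID3 and 3.71-fold for ID1. Without this sample both genes were still called, at log2 fold changes of −3.13 for ID1 and −1.37 for ID3. Of the 9 genes, 4 lay more than 1.5-fold outside the range of the other DM samples in DM replicate 3, namely ID1, ID3, BMP2 and GREM1, beside 11.9% of all tested genes.

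ID2 (ENSBTAG00000021187, chromosome 11, 88584862 to 88587166, minus strand) had 66.7, 71.7 and 68.7 CPM in GM and 41.0, 42.8 and 36.5 CPM in DM. These values were tight within each group, with an SD of 2.52 CPM in GM and 3.24 CPM in DM. The log2 fold change of −0.79 (SE 0.076, edgeR adjusted p = 6.54e-06) stayed under the fold minimum in spite of the small error.

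**Figure D2:**
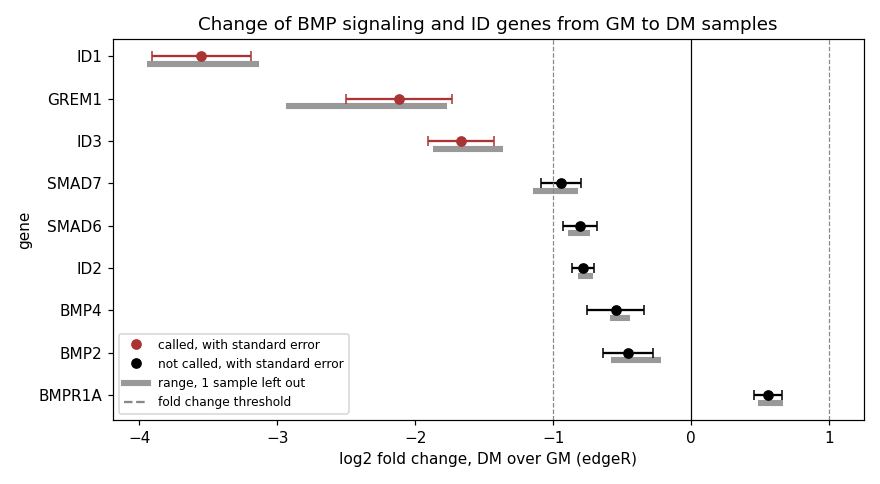
Log2 fold change of DM over GM from edgeR for each of the 9 genes, with bars of ±1 SE and dashed lines at the fold minimum of 1 in either direction. ID1 (−3.55), GREM1 (−2.12) and ID3 (−1.67) lie beyond the line, SMAD7 (−0.94) lies just inside it, and BMPR1A (0.55) is the only gene above 0.

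The order of levels changed between GM and DM. On the RPKM scale, which corrects for gene length, ID1 stood highest in GM at 109.6 ± 17.5 RPKM (SD, n = 3), with a range that overlapped that of ID3 at 94.2 ± 8.94 RPKM. ID2 followed at 60.6 RPKM, GREM1 at 30.7 and SMAD7 at 18.8, each apart from its neighbours in every sample. BMP2 (9.30 RPKM), SMAD6 (9.01) and BMPR1A (8.27) overlapped in GM, and BMP4 was lowest at 1.74 RPKM. In DM the highest were ID2 at 32.9 RPKM and ID3 at 27.7, whose ranges overlapped. From BMPR1A at 11.3 RPKM down to SMAD6 at 4.81 each gene overlapped the next, and ID1 lay among them at 8.78 ± 5.15 RPKM. BMP4 was again lowest, at 1.11 RPKM.

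The summed level of ID1, ID2 and ID3 was 237, 291 and 265 RPKM in the GM samples and 74.9, 84.8 and 48.3 RPKM in the DM samples. ID1 made up 37.9 to 43.5% of this sum in GM and 6.48 to 15.6% in DM, while ID2 made up 21.6 to 24.7% in GM and 42.0 to 62.0% in DM. The E proteins, the partners that ID proteins bind, were TCF3, TCF4 and TCF12. Their sum was 88.5 to 90.3 RPKM in GM and 95.3 to 96.0 RPKM in DM. The ratio of the ID sum to the E protein sum was therefore 2.68, 3.22 and 2.95 in GM and 0.780, 0.886 and 0.507 in DM. RPKM rests on the listed gene lengths and on the reads that were counted. A ratio above or below 1 therefore does not give the relative number of transcripts.

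**Figure D3:**
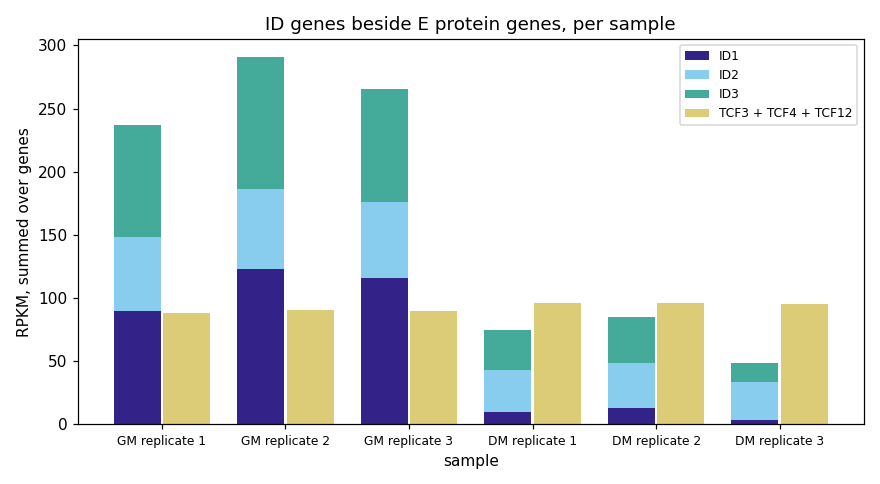
Deposited RPKM of ID1, ID2 and ID3 and of the E proteins TCF3, TCF4 and TCF12 in each of the 6 samples. The ID sum lies between 237 and 291 RPKM in GM and between 48.3 and 84.8 RPKM in DM. The E protein sum lies between 88.5 and 90.3 RPKM in GM and between 95.3 and 96.0 RPKM in DM. Neither sum is TMM-scaled.

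None of the 3 E protein genes was called. TCF3 went from 97.5 ± 5.94 to 73.6 ± 4.57 CPM (SD, n = 3 each), a log2 fold change of −0.41 (edgeR adjusted p = 0.000612). TCF12 went the other way, from 149 ± 4.89 to 224 ± 11.1 CPM, at 0.59 (edgeR adjusted p = 1.25e-05). TCF4 had a log2 fold change of 0.23 (edgeR adjusted p = 0.0444). Of the 10 myogenic and other ID-sensitive factors, 2 were called higher and 3 lower, beside 15.0% and 10.3% of all tested genes. MYF6, which is expressed late in myogenesis, rose from 0.519 to 8.22 CPM, and MYOG, a driver of terminal differentiation, rose from 52.9 ± 13.3 to 167 ± 15.5 CPM. MYF5, a factor of myogenic commitment, fell from 143 ± 6.38 to 22.0 ± 3.34 CPM. MYOD1, named here after its values were seen, had 30.6, 30.8 and 36.1 CPM in GM and 67.2, 75.0 and 39.3 CPM in DM. Its log2 fold change of 0.90 (edgeR adjusted p = 0.00202) was under the fold minimum, and it was 1.14 and called without DM replicate 3.

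Around the 9 genes, the BMP pathway was described by 6 lists of 87 entries, of which 65 were tested and 26 called, with 6 higher and 20 lower. Over all tested genes 25.3% were called, 15.0% higher and 10.3% lower, and the counts of each list stand beside these shares. The lists, too, were chosen with earlier results of these data known. The 9 genes are among the 65. Without them, 23 of 56 tested genes were called, 6 higher and 17 lower, and the median over the 56 was −0.39 on the log2 scale.

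Among the ligands, 2 of 8 tested genes were called, both lower, which is close to the 25.3% called over all tested genes, and the median log2 fold change was −0.50. BMP6 fell from 5.03 ± 1.10 to 2.0 ± 0.148 CPM (log2 fold change −1.33, edgeR adjusted p = 0.00023). BMP7 fell from 1.75 ± 0.499 to 0.320 ± 0.183 CPM, with only 15, 4 and 15 counts in the DM samples. No ligand was called higher.

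Of the 16 tested secreted antagonists and modulators, 5 were called lower and 1 higher, and the median was −0.39 on the log2 scale. FST (follistatin), which binds activins, myostatin and some BMPs, had 202, 216 and 193 CPM in GM and 12.5, 11.5 and 9.59 CPM in DM. FST fell by 4.18 on the log2 scale (SE 0.10, edgeR adjusted p = 8.39e-10). VWC2, another secreted BMP antagonist, fell from 4.62 ± 0.662 to 1.57 ± 0.442 CPM. The other called genes, named here after their values were seen, were NOG (noggin, which sequesters BMP ligands), TLL1 (a protease that cleaves chordin) and BMPER (a chordin-like regulator). NOG fell from 2.78 ± 0.134 to 0.950 ± 0.416 CPM and TLL1 from 1.07 to 0.375 CPM, while BMPER rose from 3.14 ± 0.425 to 7.21 ± 0.614 CPM. Without DM replicate 3, 9 genes of this list were called. The added genes, named here after their values were seen, were CHRDL1, FSTL1 and TLL2, and all were higher in DM. With all samples, FSTL1 went from 1381 ± 51.1 to 2619 ± 267 CPM, at 0.92 on the log2 scale and so under the fold minimum.

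Receptors and co-receptors moved in both directions. Of 11 tested, 4 were called higher and 4 lower, and the median was 0.23 on the log2 scale. All 4 that rose are receptor kinases. The type II receptor BMPR2 had 33.0, 28.1 and 29.4 CPM in GM and 74.6, 65.9 and 67.1 CPM in DM (log2 fold change 1.20, SE 0.083, edgeR adjusted p = 5.35e-07). ACVR1, a type I receptor, rose from 50.3 ± 3.24 to 109 ± 2.19 CPM and ACVR2A, a type II receptor shared with activins, from 27.9 ± 1.74 to 61.9 ± 5.67 CPM. ACVRL1, a type I receptor best known from endothelium, rose from 0.466 ± 0.174 to 3.07 ± 0.482 CPM. Summed endothelial markers were at 2.87 to 3.29 CPM in GM and 4.51 to 5.65 CPM in DM, with 1 marker called higher and 1 lower. TEK rose from 1.47 to 4.20 CPM, CDH5 fell from 0.534 to 0.110 CPM, KDR was at 1.03 and 0.615 CPM, and PECAM1 had 8 counts or fewer in every sample. Their part in the ACVRL1 level was not tested.

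The genes that fell were the co-receptors RGMA and RGMB, the decoy receptor BAMBI, which lacks a kinase domain, and the type II receptor ACVR2B. BAMBI fell from 5.61 ± 0.401 to 1.55 ± 0.184 CPM, RGMA from 22.1 ± 0.444 to 9.91 ± 2.73 CPM and RGMB from 63.5 ± 5.55 to 28.0 ± 3.46 CPM. ACVR2B had 6.37, 8.12 and 8.81 CPM in GM and 4.80, 4.34 and 1.54 CPM in DM, and its call was lost without DM replicate 3, at a log2 fold change of −0.76. The type I receptor BMPR1B, which is closely related to BMPR1A, had a log2 fold change of −0.52 (edgeR adjusted p = 0.00311), opposite in sign to BMPR1A, and was not called.

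None of the 4 SMADs that carry the signal was called, and their median log2 fold change was −0.06. SMAD1 went from 57.0 ± 1.85 to 74.2 ± 3.51 CPM (log2 fold change 0.38, edgeR adjusted p = 0.000464). SMAD9 went from 16.8 ± 1.29 to 9.01 ± 2.17 CPM (−0.90, edgeR adjusted p = 0.000641) and was called without DM replicate 2, at −1.05. SMAD5 (91.5 and 89.9 CPM) and SMAD4 (85.0 and 79.6 CPM) had log2 fold changes of −0.02 and −0.09, within the overlap of their GM and DM samples.

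Among 11 tested intracellular inhibitors, SMAD6 and SMAD7 included, 2 were called lower and none higher, and the median was 0.02 on the log2 scale. Without the fold minimum 8 of the 11 passed at an adjusted p under 0.05, beside 63.0% of all tested genes. These 8 lay on both sides. TOB1, named here after its values were seen, had a log2 fold change of 0.91 (edgeR adjusted p = 7.97e-06). SMURF2, a ubiquitin ligase that marks SMADs and receptors for breakdown, had 248, 215 and 240 CPM in GM and 64.3, 66.4 and 64.3 CPM in DM (log2 fold change −1.85, SE 0.069, edgeR adjusted p = 9.66e-09). CTDSPL, of a family of small phosphatases that act on SMADs, fell from 19.6 ± 2.04 to 9.72 ± 1.51 CPM. Its log2 fold change of −1.01 was at the fold minimum, and its call was lost in 5 of 13 alternatives.

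Of the 15 tested target genes, 7 were called lower and 1 higher, and the median was −1.01 on the log2 scale. ID1, ID2 and ID3 are 3 of the 15, and ID1 and ID3 are among the 7 called lower. The median is the value of DLX3, which was not called and had only 5, 3 and 6 counts in GM and 3, 2 and 1 counts in DM. GATA2, a transcription factor of blood and mesenchymal precursors, had 8, 12 and 10 counts in GM and 1, 0 and 1 counts in DM, too few for a fold change. SP7, a transcription factor of osteoblasts, fell from 1.68 ± 0.229 to 0.240 ± 0.060 CPM. The other called targets, named here after their values were seen, were ATOH8, HEY1 and DLX2, which fell, and MSX2, which rose from 0.437 ± 0.0435 to 1.58 ± 0.530 CPM. ATOH8, a bHLH factor, went from 11.5 ± 1.86 to 3.44 ± 1.24 CPM, and HEY1, a target shared with Notch signaling, from 8.72 ± 0.474 to 3.05 ± 0.104 CPM. DLX2 had 7 to 21 counts in DM, and its call was lost without GM replicate 2. With testing limited to genes at 1 RPKM or more in over 50% of samples, GATA2, SP7, DLX2 and MSX2 were not tested. The targets then called were 4, namely ID1, ID3, ATOH8 and HEY1. Summed osteoblast markers ranged from 109.7 to 118.7 CPM in GM and from 122 to 186 CPM in DM, with 2 called higher and 1, SP7 itself, called lower. ALPL rose from 1.14 to 49.3 CPM, with 65.2, 60.4 and 22.3 CPM in the DM samples, and IBSP from 9.58 to 21.9 CPM. RUNX2 was at 42.9 and 32.1 CPM and SPP1 at 59.6 and 58.5 CPM, and neither was called. BGLAP had 7 counts or fewer in every sample. The part of these markers in the SP7 and MSX2 values was not tested.

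**Figure D4:**
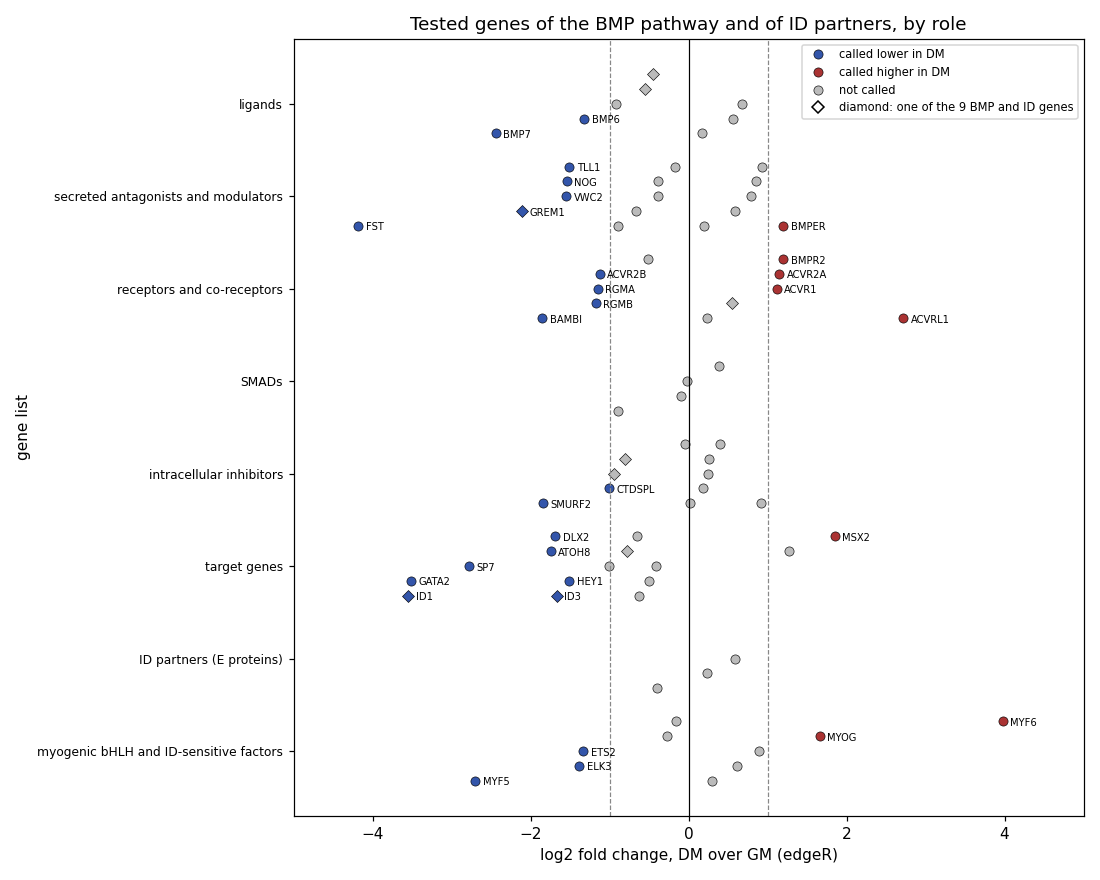
Log2 fold change of DM over GM for each tested gene of the 6 BMP pathway lists and of the ID partner and ID-sensitive lists, with called genes in blue (lower in DM) or red (higher in DM), diamonds for the 9 BMP and ID genes and dashed lines at the fold minimum. Called target genes and antagonists lie mostly to the left, whereas the called receptors are split, 4 on each side.

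The genes whose log2 CPM followed ID1 most closely were RSRC1 (Pearson r = 0.999), CDC42EP3 (r = 0.998) and G0S2 (r = 0.998) over the 6 samples and 8980 tested genes that averaged 10 CPM or more. The samples fall into GM and DM, and r over all 6 does not separate the spread within a group from the difference between them. G0S2 had 23.4, 30.0 and 26.0 CPM in GM and 8.38, 8.72 and 4.24 CPM in DM, whereas CDC42EP3 differed by only −0.34 on the log2 scale.

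Each of the 9 genes had 1 mRNA transcript in the transcript table, with the same counts as the gene in every sample, so isoforms could not be compared. Of the 18 nearest tested genes on either side, 7 were called, 4 lower and 3 higher, beside 25.3% of all tested genes. These 18 neighbours lay between 10534 and 1848692 bases away. HM13 and BCL2L1 on either side of ID1 were not called, at −0.20 and 0.23 on the log2 scale. SCG5, next to GREM1, moved the opposite way to GREM1, with a rise of 2.29 (edgeR adjusted p = 8.38e-06).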

How the data were processed

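The authors deposited whole-number read counts per gene and per mRNA transcript for 3 GM and 3 DM samples, without normalization. The deposited RPKM values are the authors' own scaling of these counts by gene length and library size. Per the paper's methods, polyA-selected reads were filtered and aligned with HISAT2 (version not given in the sources used here). The methods name the buffalo genome, while the tables list cattle Ensembl identifiers and no build, so coordinates are those of the tables. Reads of buffalo counted on cattle models can be lost where the sequences differ, which could lower the level of a gene in all samples. The submitters' processing notes name Bowtie 0.12.2 and the builds mm8 and mm9, which are of another organism. The authors' lists of differential features (log2 fold change, p-value, q-value) and the ncRNA table were not used. The number of unmapped sample columns was 0.

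Counts of genes with at least 10 reads over the 6 samples were tested in R 4.3.3 with edgeR 4.0.16 (TMM, glmQLFit, glmQLFTest), with Benjamini-Hochberg adjustment over all 15576 genes. The thresholds are those of the paper's methods. Standard errors came from the F statistic. TMM factors were 1.03 to 1.04 in GM and 0.948 to 0.983 in DM. For the share of all genes in which a sample lay outside the others of its group, 0.05 CPM was added to each value. Alternatives were DESeq2 1.42.0, other scalings and filters, no fold minimum, a replicate block and each sample left out. Samples of equal replicate number did not deviate together (r of deviations between −0.0218 and −0.0076). This cannot show whether they shared a culture. The procedure was tested on simulated data.

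Named were the 9 genes, up to 3 called genes with the largest change in each list, any SMAD, receptor or E protein gene, and the 3 genes most like ID1. Members and lists were chosen with earlier results of these data known. Tables were made with Python 3.11.15 and pandas 2.3.3.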

Additional observations from a re-analysis of the deposited data

How the results depend on the processing

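The direction of all 9 genes, 8 lower and 1 higher in DM, held in each alternative run. Of 135 alternative values for single genes of the 9, 127 left the call as it was and 8 added one. Without the fold minimum these were ID2 (−0.79), BMP2 (−0.46), BMP4 (−0.55), BMPR1A (0.55), SMAD6 (−0.81) and SMAD7 (−0.94). SMAD7 also passed with library size alone (−1.04) and without DM replicate 3 (−1.15).

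Genes called numbered 3936 in all, 9813 without the fold minimum and 2197 under the authors' RPKM rule (at least 1 RPKM in more than 50% of samples). For the 6 BMP pathway lists these counts were 26, 51 and 17. Without the fold minimum, 9 of the 9 genes and 12 of 13 ID partners and ID-sensitive factors were called, against 3 and 5 with it. The share of all tested genes called was 63.0% without the fold minimum and 25.3% with it. Under the RPKM rule fewer genes are tested. Leaving out each sample in turn gave 3647 to 3995 genes, 3 to 4 of the 9 genes, 25 to 29 of the pathway genes and 5 to 6 of the partners and factors.

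With each sample left out, log2 fold changes ranged from −3.94 to −3.13 for ID1, −0.82 to −0.71 for ID2, −1.87 to −1.37 for ID3, −0.58 to −0.22 for BMP2, −0.59 to −0.45 for BMP4, −2.94 to −1.77 for GREM1, 0.48 to 0.66 for BMPR1A, −0.89 to −0.73 for SMAD6 and −1.15 to −0.82 for SMAD7. These calls join the fold minimum and the adjusted p, and the adjusted p alone moved across 0.05 for the ligands. That of BMP2 was above it with filterByExpr (0.0535), under the RPKM rule (0.0748) and with each GM sample left out (0.0711 to 0.135). That of BMP4 was above it with DESeq2 (0.0624), the replicate block (0.0686), with each GM sample left out (0.0613 to 0.12) and without DM replicate 1 (0.107) or 2 (0.0563).

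The replicate numbers were not used as pairs in the main test, since the labels tie them to no shared culture. Samples of equal number did not deviate together, which does not exclude a shared culture. With the replicate block, 3837 genes, 3 of the 9 genes, 26 pathway genes and 5 partners and factors were called.

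With 3 samples a group, the error of DM values for ID1, ID3, BMP2 and GREM1 rests largely on DM replicate 3. Low counts limit BMP4, BMP7, GATA2 and DLX2, and also SP7, TLL1, MSX2 and ACVRL1. SP7 had 6, 9 and 11 counts in DM and TLL1 had 15, 17 and 8. In GM, MSX2 had 20, 18 and 15 counts and ACVRL1 had 11, 23 and 22. The sources used here do not say whether counting used strand.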

Other observations

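Besides the myogenic factors, ETS-domain factors are known partners of ID proteins. ETS2 and ELK3, named here after their values were seen, were called lower in DM. ETS2 had 45.7, 48.6 and 45.7 CPM in GM and 18.7, 19.3 and 17.4 CPM in DM (log2 fold change −1.34, edgeR adjusted p = 1.06e-07), and ELK3 went from 135 ± 3.05 to 51.3 ± 3.39 CPM (−1.39, edgeR adjusted p = 4.70e-08). ETS1, ELK1 and ELK4 were not called, at 0.29, −0.27 and 0.61 on the log2 scale.

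Chondrocyte markers summed to 2.87 to 3.24 CPM in the GM samples, to 3.32 and 3.99 CPM in DM replicates 1 and 2 and to 20.9 CPM in DM replicate 3. Nearly all of the last value was ACAN, with 755 counts there against 96 and 130 in the other DM samples.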
